A study of Mus musculus with 4 samples.

Results

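The genes described here encode the IL-20 subfamily of cytokines (Il19, Il20, Il24), the related cytokine Il22, the receptor chains that bind them (Il20ra, Il20rb, Il22ra1, Il10rb), the transcription factor Stat3 and its feedback inhibitor Socs3. Of the 10 genes, 9 had a probe set with that gene as its single listed symbol, among 19938 genes named in this way. Where a gene had several such probe sets, the one with the highest mean over the 4 arrays was used. Il22 had no such probe set, because its probe sets are listed together with a near-identical neighbouring gene, and it receives no value of its own below.

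RNA of whole ear skin from 8-week-old female mice was read on 4 microarrays, 1 for each group. The groups were mice with an epithelial knockout of Traf6 (Traf6EKO, here EKO) with imiquimod (IMQ), untreated EKO mice, mice whose Traf6 alleles were floxed but not deleted (Traf6f/f, written f/f below) with IMQ, and untreated f/f mice. IMQ, a TLR7 agonist that provokes psoriasis-like inflammation in mouse skin, was given as 10 mg of cream per day on the ear for 2 days. The sources used here do not name the promoter that drives the deletion, and the series' description gives n = 2 without saying whether RNA of several mice was pooled. Each group thus has 1 value, with no replicate error and no p-value, and every difference below is between single arrays. In whole skin, fewer cells of a type and less RNA per cell cannot be told apart. Traf6, the adaptor that passes Toll-like, IL-1 and IL-17 receptor signals on, was at 9.35 in EKO IMQ, 9.65 in EKO untreated, 9.30 in f/f IMQ and 9.51 in f/f untreated skin (log2), so its level did not separate the genotypes. The sources used here do not say whether its probes fall within the deletion.

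IL-19, IL-20 and IL-24 signal through a receptor of the IL-20RA and IL-20RB chains, and IL-20 and IL-24 also through IL-22RA1 with IL-20RB. IL-22 uses IL-22RA1 with IL-10RB. In skin these receptors are found mainly on keratinocytes, where they activate STAT3, promote epidermal thickening and antimicrobial protein production, and delay differentiation. SOCS3 is induced by STAT3 and restrains the same pathway. Il24, Il20, Il19 and Il10 lie in this order on chromosome 1 with no other protein-coding gene between them in the RefSeq annotation, and Il20ra and Il22ra2, which encodes a soluble IL-22 receptor, are neighbours on chromosome 10.

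RefSeq promoters of GRCm38.p6 (250 bases before to 50 after a gene's start) were given for 8 of the 10 genes, all but Il24 and Il10rb, and were searched for TTCNNNGAA, the core of the element that STAT factors bind. The motif is its own reverse complement, so a match on one strand is a match on both. It occurred in the promoters of Il19 and Socs3, 2 of 8, and in 8.3% of all 32851 promoters in the table. Both are printed because they hold the motif. Il19 and Socs3 differed little with IMQ in EKO skin and were close to 2-fold higher in f/f skin, as described below. Il24, with a like difference in f/f skin, was not searched. Stat3, which was 1.72-fold higher with IMQ in f/f and 1.16-fold higher in EKO skin, was searched and did not hold the motif, nor did Il20. A relation of the motif to the IMQ differences was not tested. Capitals mark the match, which is a description of the letters and not a bound site. In Il19 (chr1:130940066-130940365, minus strand) the match TTCCCAGAA spans positions -225 to -217 from the start, and in Socs3 (chr11:117969317-117969616, minus strand) the match TTCTTAGAA spans positions -154 to -146. The annotation of both genes also extends upstream of the start used here.
Il19: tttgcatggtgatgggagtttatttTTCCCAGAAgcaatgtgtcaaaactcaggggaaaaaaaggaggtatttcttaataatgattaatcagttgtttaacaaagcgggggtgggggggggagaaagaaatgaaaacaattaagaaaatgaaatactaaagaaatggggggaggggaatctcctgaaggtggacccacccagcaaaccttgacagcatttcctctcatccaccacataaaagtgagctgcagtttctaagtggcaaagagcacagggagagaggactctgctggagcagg
Socs3: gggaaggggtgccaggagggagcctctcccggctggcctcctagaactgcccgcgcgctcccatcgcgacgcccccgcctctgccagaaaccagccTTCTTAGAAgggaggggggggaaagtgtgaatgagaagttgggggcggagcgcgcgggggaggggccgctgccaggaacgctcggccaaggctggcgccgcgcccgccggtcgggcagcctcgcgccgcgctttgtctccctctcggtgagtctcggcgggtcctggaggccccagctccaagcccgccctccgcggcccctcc

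The cytokine genes gave weak signals, and 2 of the 3 stood out in IMQ-treated f/f skin. Levels are log2 values in which a step of 1 is a 2-fold difference. A floor was set for each array at the median level of all named genes, 6.94 in EKO IMQ, 6.96 in EKO untreated, 6.93 in f/f IMQ and 6.98 in f/f untreated skin, and signal below it approaches background. For a second guide, the 95th percentile of 1027 olfactory receptor genes, which skin is not expected to express at large amounts, was 5.75, 5.73, 5.74 and 5.81 on the same arrays. Probe sets differ in brightness, so neither guide is a detection limit.

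Il19 was at 5.54 in EKO IMQ, 5.53 in EKO untreated, 6.52 in f/f IMQ and 5.56 in f/f untreated skin. It encodes a cytokine made by keratinocytes and myeloid cells, and its value on the f/f IMQ array was the only one of the 4 above the olfactory receptor guide. The IMQ difference was 0.01 in EKO and 0.96 in f/f skin (1.95-fold). With IMQ, EKO skin was lower by 0.98, while the untreated genotypes differed by -0.03.

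Il24, a cytokine gene induced in wounded and inflamed epidermis, was at 4.81 in EKO IMQ, 5.06 in EKO untreated, 5.95 in f/f IMQ and 5.04 in f/f untreated skin. Again only the f/f IMQ value lay above the olfactory receptor guide. Its IMQ difference was -0.25 in EKO and 0.91 in f/f skin (1.88-fold), so the directions were opposite. With IMQ, Il24 was lower in EKO skin by 2.20-fold (-1.14), the largest genotype difference among the 9 genes. It was not counted as a 2-fold difference only because both levels lay below the floor. Such folds from weak signals are imprecise.

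Il20, a cytokine gene that drives keratinocyte hyperplasia when overexpressed in mice, was at 4.68 in EKO IMQ, 4.73 in EKO untreated, 4.92 in f/f IMQ and 4.67 in f/f untreated skin. All 4 values were below the olfactory receptor guide. The IMQ difference was -0.05 in EKO and 0.25 in f/f skin, the f/f value having the sign of those of its neighbours Il19 and Il24. Il10, the neighbouring gene of the anti-inflammatory cytokine of the same family, had IMQ differences of 0.26 in EKO and 0.13 in f/f skin, at levels between 4.83 and 5.08.

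**Figure D1:**
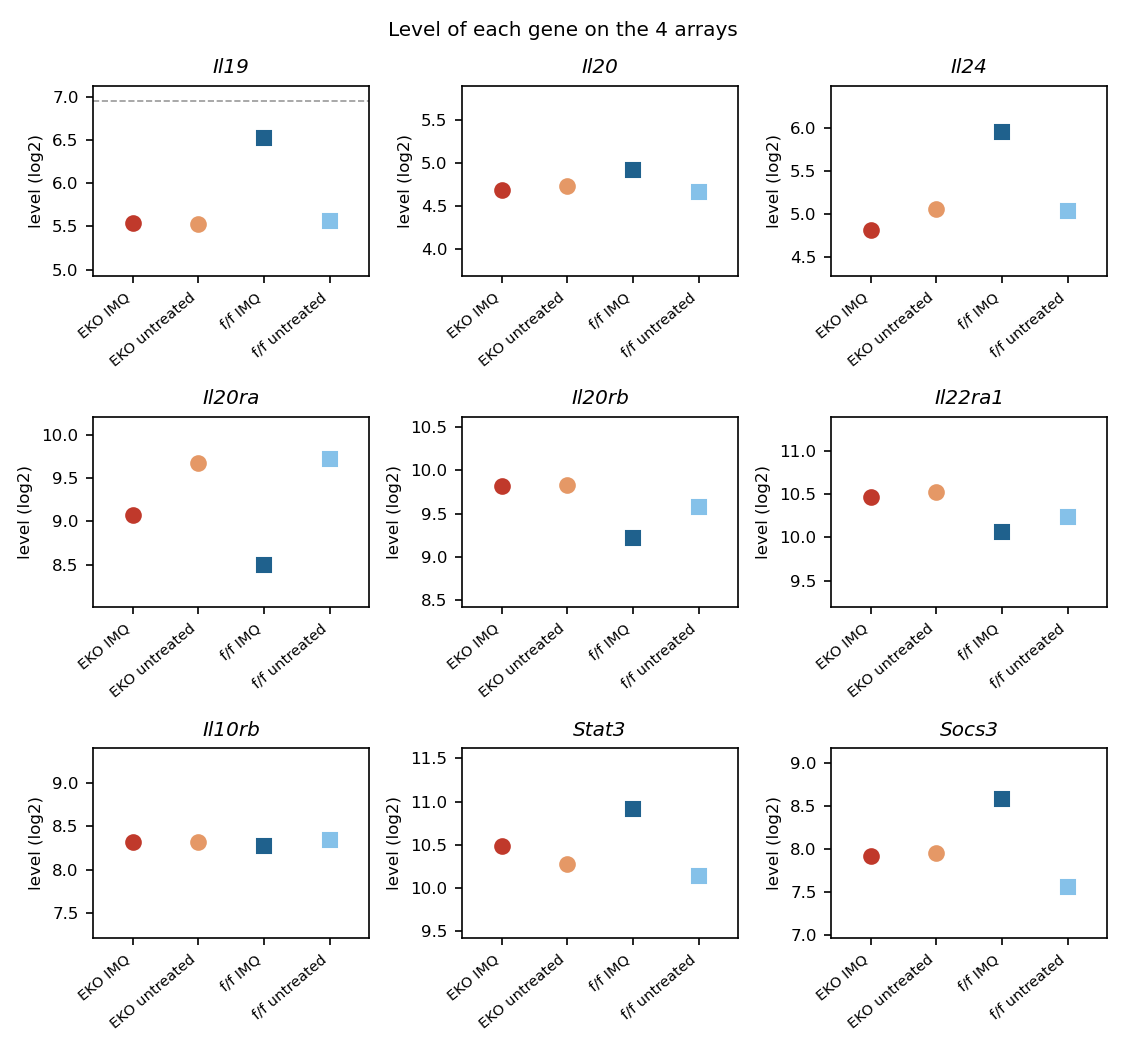
Level (log2) of each of the 9 genes on the 4 arrays, 1 point per array, with the floor as a dashed line where it falls within the panel. Panels share 1 span of the axis, so equal heights are equal differences; Il19, Il24, Stat3 and Socs3 are highest and Il20ra, Il20rb and Il22ra1 lowest on the f/f IMQ array.

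The receptor chains went the other way: all 4 were lower with IMQ than without in f/f skin under every scaling tried, and their median IMQ difference was at -0.03 for EKO and -0.27 for f/f skin, against -0.01 over all 19938 genes in each. In EKO skin Il20rb and Il10rb were within 0.01 of 0, and their sign there turned with the scaling. All 4 were above the floor on every array. With IMQ, all 4 were higher in EKO than in f/f skin (median 0.49, against -0.01 over all genes). The IMQ comparison in f/f and the genotype comparison with IMQ share the f/f IMQ array, so these are not separate observations.

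Il20ra, the chain that forms the receptor for all IL-20 subfamily cytokines together with IL-20RB, was at 9.07 in EKO IMQ, 9.68 in EKO untreated, 8.49 in f/f IMQ and 9.73 in f/f untreated skin. Both IMQ arrays were below both untreated arrays. The difference was -0.61 in EKO (1.53-fold lower) and -1.23 in f/f skin (2.35-fold lower). From the highest difference down, this placed Il20ra at rank 10220 of the 10285 genes above the floor in EKO and at rank 10412 of 10548 in f/f skin. The genotypes differed by 0.58 with IMQ and by -0.05 without.

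Il20rb, the partner chain, was at 9.82 in EKO IMQ, 9.83 in EKO untreated, 9.21 in f/f IMQ and 9.58 in f/f untreated skin. Its IMQ difference was -0.01 in EKO and -0.36 in f/f skin. EKO skin was higher by 0.61 with IMQ and by 0.25 without. The gene has 3 probe sets, whose genotype differences were 0.64, 0.61 and 0.64 with IMQ and 0.32, 0.25 and 0.36 without. Probe sets of 1 gene read the same RNA and are not replicates.

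Il22ra1, the chain that confers response to IL-22, was at 10.47 in EKO IMQ, 10.53 in EKO untreated, 10.07 in f/f IMQ and 10.24 in f/f untreated skin. Both EKO values lay above both f/f values, by 0.40 with IMQ and by 0.29 without. The gene's other probe set gave 0.41 and 0.37. The IMQ difference was small in either genotype, at -0.06 in EKO and -0.17 in f/f skin.

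With IMQ, the genotype differences of Il20rb, Il20ra and Il22ra1 ranked 194, 220 and 524 from the highest among 10282 genes above the floor. Without IMQ, Il22ra1 and Il20rb ranked 573 and 763 of 10200, and Il20ra ranked 6814. Basal keratinocyte markers had a median genotype difference of 0.03 with IMQ and 0.26 without, and suprabasal keratinocyte markers 0.13 with IMQ and 0.18 without. Among the 7 basal markers 4 were above 0 and 3 below it with IMQ, and 1 was counted, the bulge keratin Krt15 at 1.01. After median scaling 0 were counted. Over all 10282 genes above the floor, 0.418% were counted higher in EKO with IMQ. The basal keratins Krt5 and Krt14 differed by 0.03 and -0.12, and the integrin genes Itga6 and Itgb4, of the hemidesmosome, by -0.33 and -0.32. The part of keratinocyte content in the receptor differences was not tested.

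Il10rb, a chain shared with the IL-10 and type III interferon receptors and expressed by many cell types, was at 8.32 in EKO IMQ, 8.32 in EKO untreated, 8.28 in f/f IMQ and 8.34 in f/f untreated skin. It varied least of the 9 genes. Il22ra2, whose product binds and neutralises IL-22, was at 6.94, 7.08, 6.81 and 7.27 on the arrays in the same order. Its IMQ differences of -0.14 in EKO and -0.46 in f/f skin had the sign of those of its neighbour Il20ra.

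**Figure D2:**
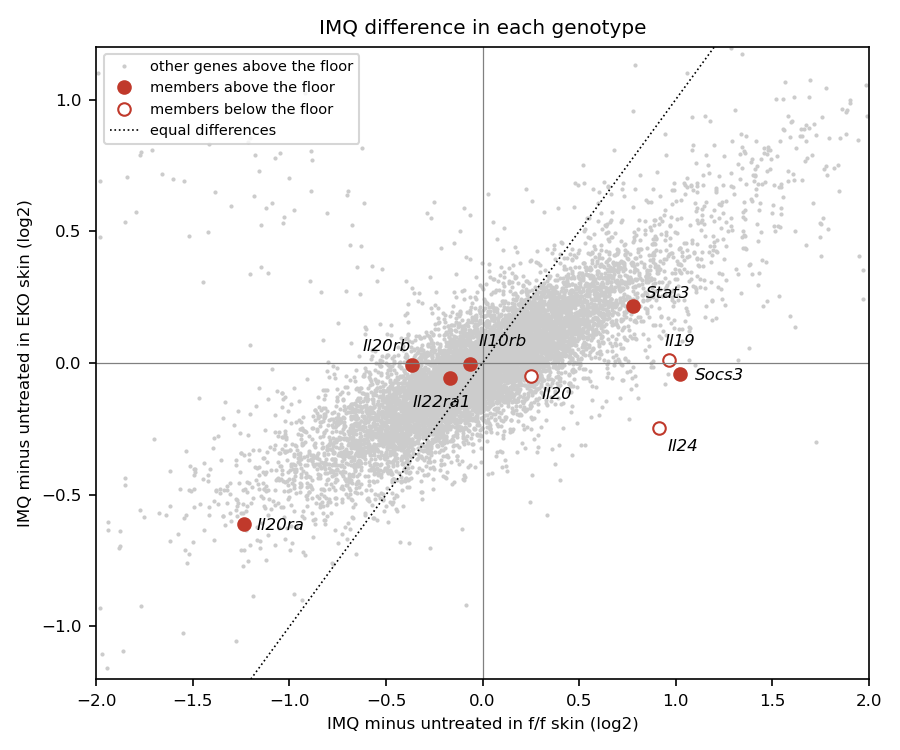
IMQ minus untreated (log2) in f/f skin on the horizontal and in EKO skin on the vertical axis, for the 9 genes (filled above the floor, open below it) and for other genes above the floor in grey; genes beyond the axes are not drawn. Il24, Il19 and Socs3 lie close to or below 0 in EKO skin and near 1 in f/f skin, whereas Il20ra is below 0 in both.

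Stat3 and Socs3 were higher with IMQ in f/f skin. Stat3 was at 10.49 in EKO IMQ, 10.27 in EKO untreated, 10.91 in f/f IMQ and 10.13 in f/f untreated skin. Both IMQ arrays were above both untreated arrays. The IMQ difference was 0.22 in EKO (1.16-fold) and 0.78 in f/f skin (1.72-fold), at rank 1389 of 10285 and rank 631 of 10548 from the highest. Stat3 was lower in EKO than in f/f skin by 0.42 with IMQ, and higher by 0.14 without.

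Socs3 was at 7.92 in EKO IMQ, 7.96 in EKO untreated, 8.58 in f/f IMQ and 7.56 in f/f untreated skin. The f/f values were the highest and the lowest, and both EKO values lay between them. The IMQ difference was -0.04 in EKO and 1.02 in f/f skin (2.03-fold). EKO skin was lower by 0.66 with IMQ and higher by 0.40 without, at rank 233 of 10200 genes from the highest in the untreated comparison. The difference of the IMQ differences, EKO minus f/f, was -1.06, to which the higher untreated EKO level contributes 0.40. A further Socs3 probe set, at 6.41, 6.39, 6.73 and 6.40 on the arrays in the same order, gave IMQ differences of 0.02 in EKO and 0.33 in f/f skin, and the untreated genotypes differed by -0.01 there. With the mean of both probe sets Socs3 no longer reached 2-fold in f/f skin (0.68).

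**Figure D3:**
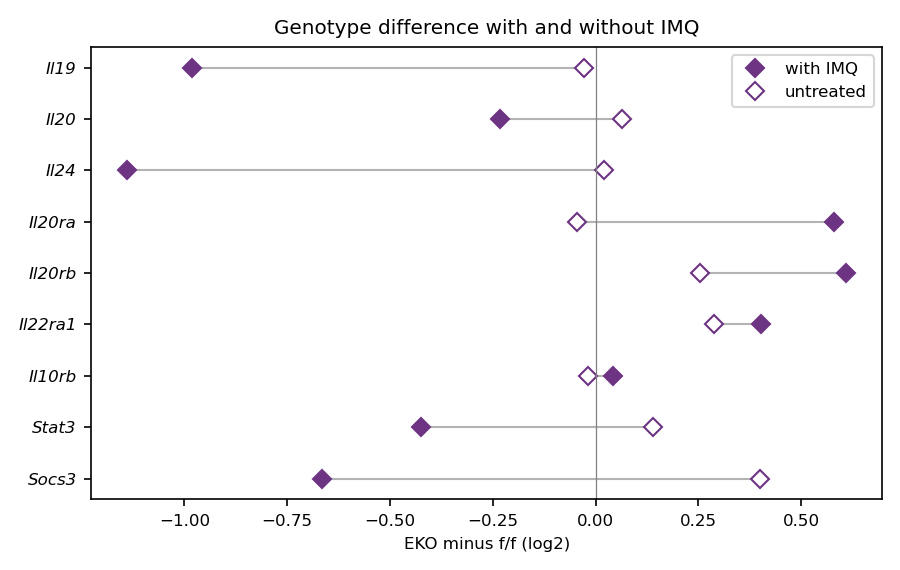
EKO minus f/f (log2) for each of the 9 genes, with IMQ (filled) and untreated (open). With IMQ the 3 cytokine genes, Stat3 and Socs3 are below 0 and the receptor chains above it, and untreated values lie between -0.05 and 0.40.

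Counted at 2-fold with a level at or above the floor on at least 1 array of the comparison, 6 of the 9 genes could be counted in every comparison. With IMQ in EKO skin, 0 were counted in either direction, where 0.671% of 10285 genes were higher and 0.0972% lower. With IMQ in f/f skin, 1 was higher (Socs3) and 1 lower (Il20ra), where 3.82% of 10548 genes were higher and 2.63% lower. Between genotypes 0 were counted with IMQ (0.418% of 10282 genes higher in EKO and 0.875% lower) and 0 without (0.0686% of 10200 higher and 0.324% lower). For the difference of the IMQ differences, 1 was lower in EKO (Socs3), against 1.18% of 10646 genes lower and 1.06% higher. With 6 genes, these counts do not set the pathway apart from the rest of the array. The median over the 9 genes was -0.04 for IMQ in EKO and 0.25 for IMQ in f/f skin, against -0.01 over all genes in each.

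For Il20ra and Socs3, the genes counted above, the closest patterns over the 4 arrays were sought by Euclidean distance of log2 levels after each gene's own mean was subtracted, among 10288 genes above the floor. Closest to Il20ra were Ptpn14 (distance 0.03), Fbxo32 (0.06) and Slc43a1 (0.06), with IMQ differences of -0.64, -0.57 and -0.69 in EKO and -1.23, -1.24 and -1.21 in f/f skin. Closest to Socs3 were Serpinb2 (0.11), Tnfrsf12a (0.14) and Oas3 (0.14), with IMQ differences of -0.01, -0.04 and 0.11 in EKO and 0.88, 0.96 and 0.95 in f/f skin. With 4 arrays many genes share a pattern, and the distances are given as a description.

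Other components of the signalling chain differed less than Socs3 with IMQ in f/f skin. Of 8 measured JAK kinases and other STAT factors, 0 were counted with IMQ in either genotype, with medians of 0.01 in EKO and -0.02 in f/f skin. Over all genes above the floor, 0.671% were counted higher and 0.0972% lower in EKO, and 3.82% and 2.63% in f/f skin. Jak1, the kinase bound to IL-22RA1, had an IMQ difference of 0.05 in both genotypes, and Tyk2, the kinase bound to IL-10RB, 0.02 in EKO and -0.09 in f/f skin. Jak2 was at -0.19 in both. Among other STAT genes, Stat5b was at -0.28 in EKO and -0.52 in f/f skin, and Stat6 at 0.15 and 0.21. The list of 15 other inhibitors likewise had 0 counted, with medians of -0.03 in EKO and 0.11 in f/f skin. Its largest difference was in Ptpn1, a tyrosine phosphatase of JAK kinases, at 0.21 in EKO and 0.75 in f/f skin. Of the SOCS family, Socs1 was at -0.08 in EKO and 0.26 in f/f skin, Socs2 at -0.27 and -0.40, and Cish at 0.16 and 0.32.

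STAT3 is also activated by cytokines that signal through gp130. Of 13 measured genes of these cytokines and receptors, 7 reached the floor in the EKO and 6 in the f/f comparison. With IMQ, 0 were counted higher in EKO and 1 in f/f skin, with medians of -0.01 and -0.03 over the 13. The shares of all genes above the floor counted higher were 0.671% and 3.82%. The counted gene, Clcf1, a cytokine of the IL-6 family, was at 7.31 in EKO IMQ, 7.15 in EKO untreated, 8.19 in f/f IMQ and 7.0 in f/f untreated skin. Osmr, the receptor chain for oncostatin M, was at 9.08, 9.22, 9.98 and 9.34 in that order, an IMQ difference of -0.14 in EKO and 0.64 in f/f skin. Its ligand gene Osm (0.01 in EKO, 0.63 in f/f) and Il6 (0.02 and 0.69) stayed below the floor. Receptor genes were among the lower ones, with Lifr at -0.51 in EKO and -0.88 in f/f skin, Il6ra at -0.21 and -0.73, and the common chain gene Il6st at -0.18 and -0.21.

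**Figure D4:**
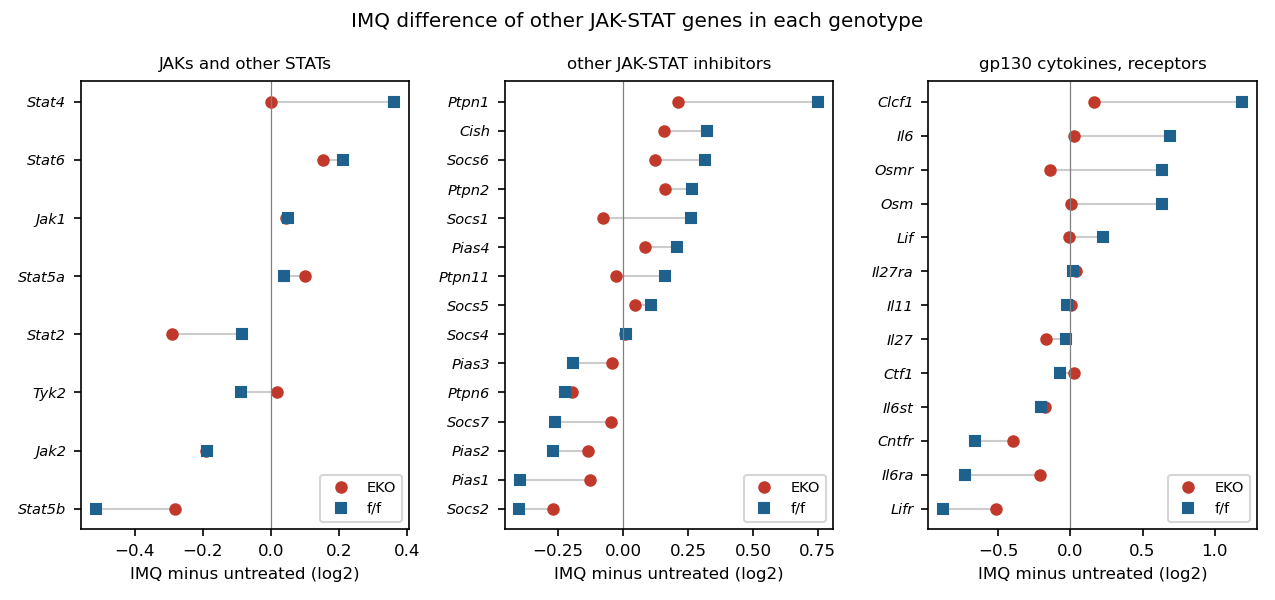
IMQ minus untreated (log2) in EKO (circles) and f/f skin (squares) for other JAK and STAT genes, other inhibitors of the pathway, and gp130 cytokines and receptors, each ordered by the f/f value; the horizontal scales differ. Clcf1 at 1.19 is the gene past 1 in f/f skin.

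Genes known to respond to these signals were examined next. Over all genes above the floor, 0.671% were counted higher with IMQ in EKO and 3.82% in f/f skin. Of 21 genes known as STAT3 targets, 17 reached the floor in the EKO comparison and 19 in the f/f comparison. With IMQ, 0 were counted in EKO and 6 were counted higher in f/f skin, with medians of 0.02 and 0.64. These were Lcn2, an iron-sequestering antimicrobial protein (0.75 in EKO, 2.64 in f/f), Timp1, a protease inhibitor (0.71, 2.46), Bcl3, an NF-kB cofactor (0.79, 2.26), Fosl1, an AP-1 subunit (0.53, 1.75), Birc5, a regulator of mitosis and cell survival (0.79, 1.33), and Junb, another AP-1 subunit (0.24, 1.01). With IMQ, 18 of the 21 were lower in EKO than in f/f skin and 3 at least 2-fold, namely Lcn2 (-2.01), Timp1 (-1.58) and Bcl3 (-1.38). Over all 10282 genes above the floor, 0.875% were counted lower in EKO with IMQ. Many of these genes also respond to NF-kB, AP-1 or the cell cycle, and the part of STAT3 in their differences was not tested.

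Of 18 keratinocyte genes reported to be raised by IL-22 or IL-20, 6 were counted higher with IMQ in EKO and 12 in f/f skin, with medians of 0.78 and 2.90. Of the 18, 11 reached the floor in the EKO and 16 in the f/f comparison. The shares of all genes above the floor counted higher were 0.671% and 3.82%. Defb4 did not reach the floor in EKO skin, and its difference there was also below 2-fold. The difference of the IMQ differences was below 0, smaller in EKO skin, for 16 of the 18. Lcn2 is on this list and that of STAT3 targets, and Il1b on this list and that of IL-22 inducers below. With IMQ 16 of the 18 were lower in EKO than in f/f skin, 8 of them at least 2-fold, where 0.875% of 10282 genes were counted lower. Without IMQ 9 were lower and 9 higher. The gap was smaller in the wound keratins, with Krt6a at 2.81 in EKO and 3.85 in f/f skin and Krt16 at 3.09 and 4.69. EKO minus f/f was 0.87 untreated and -0.73 with IMQ for Krt16, and 0.12 and -0.92 for Krt6a. The higher untreated EKO level of Krt16 thus contributes to its gap. The antimicrobial genes Defb4 (0.90 in EKO, 4.56 in f/f) and Defb3 (1.48, 5.52) had a larger gap, as did S100a8 (1.36, 5.01) and S100a9 (1.37, 4.74). The part of IL-22 or IL-20 in these differences was not tested, nor was that of neutrophils or other cells of the skin. Genes of keratinocyte differentiation reported to be lowered by these cytokines did not share a direction. Of 9 measured, 0 passed 2-fold in either genotype, and the medians were 0.28 in EKO and 0.08 in f/f skin. Flg2 (-0.23 in EKO, -0.99 in f/f) and Krt77 (-0.29, -0.94) were lower, whereas the cornified envelope gene Ivl (0.56, 0.94) and the suprabasal keratin Krt1 (0.41, 0.89) were higher. After quantile or cyclic loess scaling, 2 of the 9 passed 2-fold as lower in f/f skin.

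**Figure D5:**
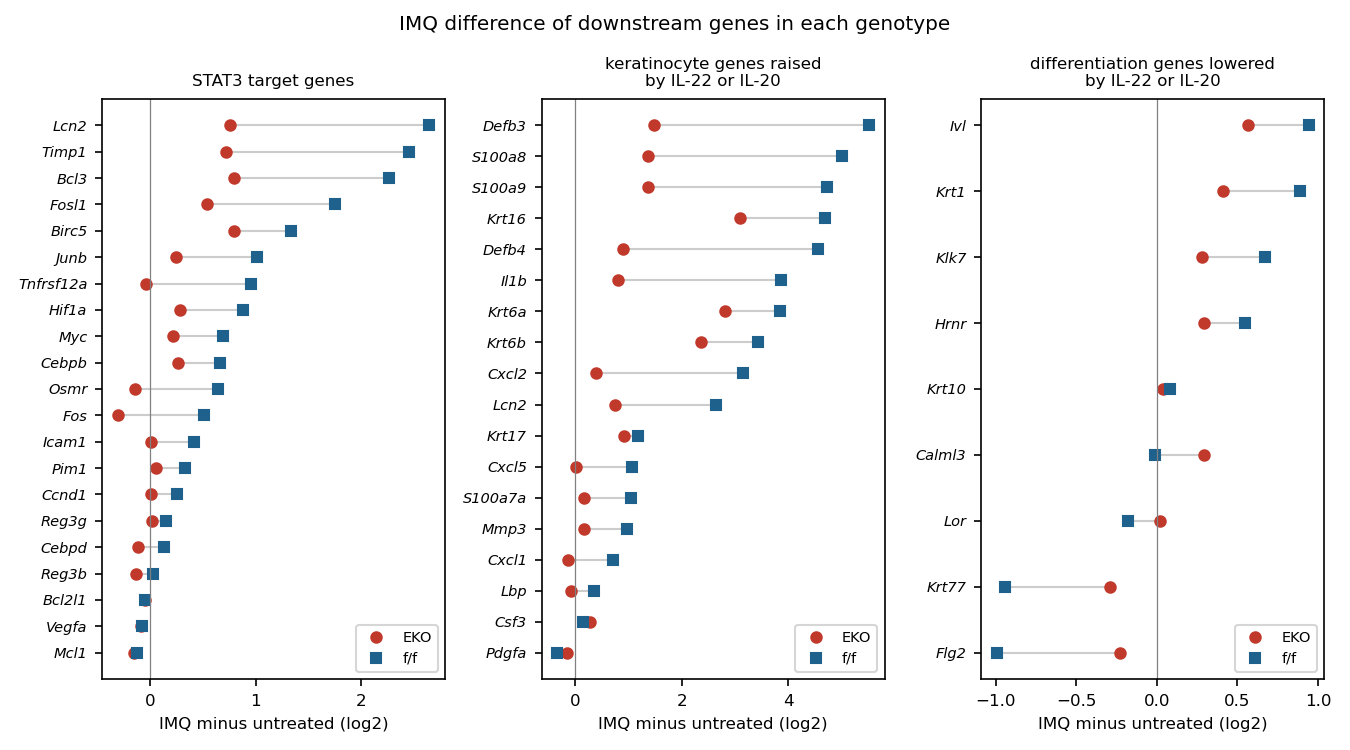
IMQ minus untreated (log2) in EKO (circles) and f/f skin (squares) for STAT3 target genes, keratinocyte genes raised by IL-22 or IL-20, and differentiation genes lowered by them, each ordered by the f/f value; the horizontal scales differ. In the panel of keratinocyte genes raised by IL-22 or IL-20, the f/f value exceeds the EKO value for 16 of 18.

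Genes of the cells and cytokines upstream of IL-22 were mostly weak. Of 9 measured genes of IL-22-producing lymphocytes, 3 reached the floor and 0 were counted in either genotype. Of the 3, Ahr had the largest difference, at -0.44 in EKO and -0.71 in f/f skin. Il23r, the IL-23 receptor chain, was at 0.13 in EKO and -0.03 in f/f skin, and Ccr6, the receptor that guides these cells to CCL20, at -0.01 and -0.16, both below the floor. The cytokine genes Il17a (-0.01 in EKO, 0.31 in f/f) and Il17f (-0.02, 0.53), also below the floor, had the higher value in f/f skin. The list's medians were -0.02 in EKO and -0.12 in f/f skin. Of the 7 measured T cell markers, 4 reached the floor in the EKO and 3 in the f/f comparison. With IMQ, 0 were counted in EKO and 1 was lower in f/f skin, Cd3g at -0.77 in EKO and -1.24 in f/f. The shares of all genes above the floor counted lower were 0.0972% in EKO and 2.63% in f/f skin. In each genotype 3 of the 7 were above 0 and 4 below it, with medians of -0.07 in EKO and -0.15 in f/f skin. Among those above 0 was Thy1, at 0.10 in EKO and 0.57 in f/f skin. Among 6 cytokine genes that induce IL-22, 0 were counted in EKO and 2 in f/f skin, Il1b (0.81 in EKO, 3.88 in f/f) and Il1a (0.31, 2.04). Of the 6, 1 reached the floor in the EKO and 3 in the f/f comparison. Il1b did not reach it in EKO skin, and its difference there was also below 2-fold. The shares of all genes above the floor counted higher were 0.671% in EKO and 3.82% in f/f skin. Il23a (0.05, 0.82) and Il12b (-0.12, 0.54), the subunits of IL-23, remained below the floor.

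Some neutrophil markers had a higher IMQ difference in f/f than in EKO skin, as Il19, Il24 and Socs3 did. Monocyte and macrophage markers went in both directions in each genotype. Of 13 neutrophil markers, 1 was counted higher with IMQ in EKO and 4 in f/f skin (medians 0.15 and 0.59). Of the 13, 2 reached the floor in the EKO and 5 in the f/f comparison. Over all genes above the floor, 0.671% were counted higher in EKO and 3.82% in f/f skin. The summed level of the 13 markers was 10.81 in EKO IMQ, 10.93 in EKO untreated, 11.19 in f/f IMQ and 10.94 in f/f untreated skin (log2 of the sum of linear levels). The brightest of them, Il1r2, a decoy receptor for IL-1, was at 10.08, 10.48, 10.02 and 10.55 on the arrays in that order and so carries much of this sum. Its IMQ differences of -0.41 in EKO and -0.53 in f/f skin ran against the list, in which 10 of 13 were above 0 in EKO and 9 in f/f skin. The counted genes in f/f skin were Cxcr2 (1.05 in EKO, 2.76 in f/f), Trem1 (0.15, 2.86), Clec4e (0.67, 2.58) and Csf3r (0.22, 1.45), while Elane and Ltf, granule genes, stayed below the floor on all arrays. Trem1, Clec4e and Csf3r did not reach the floor in EKO skin, and their differences there were also below 2-fold. Of 10 monocyte and macrophage markers, 6 were above 0 and 4 below it in EKO skin, and 5 and 5 in f/f skin. Their medians were 0.05 in EKO and -0.03 in f/f skin. In f/f skin 1 was counted higher, Itgam at 0.94 in EKO and 1.08 in f/f, and 1 lower, Cd163 at -0.36 and -1.14. Not counted were Cd14 at 0.02 in EKO and 0.85 in f/f skin, Lyz2 at -0.16 and -0.72, and Adgre1 at 0.51 and 0.11. Over all genes above the floor, 0.0972% were counted lower in EKO and 2.63% in f/f skin. Neutrophils and monocytes express Il19, Stat3 or Socs3 as well, and the part of these cells in the differences was not tested. Among the other cell types, dendritic and Langerhans cell markers had 1 of 10 counted lower in each genotype, Cd209a at -1.34 in EKO and -2.42 in f/f skin. Of 7 basal keratinocyte markers, 0 were counted in EKO and 1 was lower in f/f skin, Krt15 at -0.63 and -1.94. Of the suprabasal keratinocyte, fibroblast and endothelial markers 0 were counted, with medians of 0.04, -0.25 and -0.23 in EKO and 0.09, -0.30 and -0.44 in f/f skin. The 6 measured genes of other IL-10 family cytokines and receptors also had 0 counted, with medians of -0.01 and 0.04.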

How the data were processed

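Expression was measured on 4 Affymetrix Mouse Gene 1.0 ST arrays, 1 per group, and titles gave each array its group. The authors deposited log2 levels per probe set, made with RMA per the submitters' processing notes (version not given in the sources used here). They run from 2.58 to 13.8, with array medians between 6.52 and 6.57. RMA equalises the arrays' distributions and compresses low signals.

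Gene names came from the platform annotation: 21789 of 35556 probe sets had 1 symbol, 1621 several and 12146 none. Probe sets with 1 symbol were used, of which 21698 matched RefSeq by Entrez identifier with 0 differing symbols.

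Log2 differences were taken for 5 comparisons, with no test, because 1 array per group leaves no replicate. Their number limits the precision, as does low signal. A gene was counted at 2-fold with a level at or above the floor. The 20 gene lists, among them cell type markers, are textbook lists. The members, lists and tests were chosen with earlier results of these data known. All members were named. Of each other list, up to 4 leading counted genes were named, plus those a sentence needed and the 3 closest patterns per counted member. Jak1, Il23r and the like were named for their role, and the 6 counted STAT3 targets exceed that number so that the count can be read.

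Alternatives were median, quantile and cyclic loess scaling, other floors, averaging over probe sets, and thresholds of 1.5-fold and 4-fold. The counting step was tested on simulated data. Tools were Python 3.11.15, numpy 2.4.6, pandas 2.3.3, R 4.3.3 and limma 3.58.1 (scaling only).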

Additional observations from a re-analysis of the deposited data

Results flagged for a closer look

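With IMQ, 3 of the 9 genes moved in opposite directions in the genotypes, each on 1 array per group, and the difference was not tested. Il24 was at -0.25 in EKO and 0.91 in f/f skin, a difference of the IMQ differences of -1.16 (EKO minus f/f). Socs3 was at -0.04 and 1.02, a difference of -1.06. Il20 was at -0.05 and 0.25, a difference of -0.30. The small EKO values of Socs3 and Il20 are close to 0, so their sign carries little weight.

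Among the other named genes, opposite signs were found, again untested, for Osmr (difference -0.78), Il12b (-0.66), Socs1 (-0.34), Iltifb (0.18), Il23r (0.15), Tyk2 (0.10), Tnfrsf12a (-1.0), Serpinb2 (-0.90), Itga6 (-0.66), Itgb4 (-0.59), Il17f (-0.55) and Il17a (-0.32).

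The report uses no probe set listed with several genes. The 2 probe sets listed for Il22 and its near-identical neighbour Iltifb together were higher with IMQ by 0.02 and 0.01 in EKO skin and by 0.41 and 0.41 in f/f skin. They were at 5.45 and 4.97 in EKO IMQ, 5.43 and 4.96 in EKO untreated, 5.80 and 5.32 in f/f IMQ, and 5.39 and 4.91 in f/f untreated skin, below the floor throughout. The probe set listed for Iltifb alone was at 4.01, 3.85, 4.02 and 4.04 in that order. Which of the genes the shared probe sets read cannot be told from the files.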

How the results depend on the processing

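Median, quantile and cyclic loess scaling left all 15 counts of the 9 genes as they were, and the largest shift of a gene's difference was 0.11 (Stat3, IMQ in f/f, quantile). The median of all genes shifted by 0.054 at most. When probe sets were averaged, Socs3 no longer reached 2-fold, leaving 1 gene counted with IMQ in f/f skin (0 higher) and 0 for the difference of the IMQ differences (0 lower). Without a floor, or with the floor at the olfactory receptor guide, Il24 was added, giving 1 gene lower in EKO with IMQ (1 in all) and 2 lower for the difference of the IMQ differences (2 in all). At 1.5-fold, 2 genes were counted higher with IMQ in f/f skin, 1 lower in EKO skin (1 in all), 1 higher and 1 lower between genotypes with IMQ (2 in all), and 1 higher for the difference of the IMQ differences (2 in all). At 4-fold, 0 were counted in any direction with IMQ in f/f skin or for the difference of the IMQ differences. Low signal limits all 3 cytokine genes. No paired analysis was possible because each group has 1 array.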
